A study of Mus musculus with 2 samples.

Results

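Peg3, Usp29 and Zim1, which lie side by side on mouse chromosome 7, and Peg10, Sgce and Ppp1r9a, which lie side by side on chromosome 6, are genes of 2 imprinted domains, and their RNA was compared in mouse embryonic stem (ES) cells after and before differentiation. The members are the rows named PEG3, USP29, ZIM1, PEG10, SGCE and PPP1R9A in the deposited tables. They make up 6 of 34376 gene rows, 14 of 55830 promoter rows (a promoter row sums the transcripts that share a first exon) and 25 of 83402 transcript rows. Differentiated cells were a mixed population kept for 4.5 days in 0.1 µM all-trans retinoic acid and 10% serum, on gelatin and without feeder cells. Undifferentiated cells were grown on mitomycin C treated mouse embryonic fibroblasts in 15% serum with leukaemia inhibitory factor at 1000 units per ml. Both cultures were E14 ES cells of strain 129P2/OlaHsd at passage 29. Fibroblasts were removed by adsorption to an estimated remainder under 0.25%, and about 8% of Differentiated and 2% of Undifferentiated cells were dead at harvest. Each group is 1 poly(A) RNA library read on 2 lanes with 36 bp reads, so no test between the conditions exists.

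An imprinted gene is transcribed mainly or only from the copy inherited from 1 parent, and the choice is set by DNA methylation laid down in the germ line at a control region. In the Peg3 domain that region covers the start of Peg3, and Peg3 and Usp29 are transcribed away from each other from the paternal copy, while Zim1 is expressed from the maternal copy. In the Peg10 domain the region lies between the starts of Peg10 and Sgce, both expressed from the paternal copy, and Ppp1r9a is maternally expressed in some tissues. The E14 line is from an inbred strain and the tables give 1 value per gene, so every value sums both parental copies and parental origin was not measured.

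The values are RPKM, read numbers scaled to the length of the transcript model and to the read total of the lane. The SD after ± is taken over both lanes of 1 library and so reflects sequencing and read assignment, not the spread between cultures. Ratios are log2((Differentiated RPKM + 1)/(Undifferentiated RPKM + 1)), a scale on which weakly expressed genes appear to differ less than they do. A gene had to reach a floor of 1 RPKM in either library, and was then called higher or lower where this ratio passed 2-fold. Positions are 1-based and on build mm9, the build of the tables. The value of 1 read implied 33060000 and 32025000 reads in the Differentiated lanes and 37770000 and 36150000 reads in the Undifferentiated lanes. Among genes at 10 RPKM or more, 98.4% of 8877 genes in the Differentiated library and 98.5% of 7875 genes in the Undifferentiated library lay within 2-fold between lanes.

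The promoter windows of Peg3 and Zim1 are shown because they mark the starts of the highest gene of the Peg3 domain and of the oppositely imprinted gene beside it. Each window runs 5′ to 3′ from 250 bases before to 50 bases after the gene's start in RefSeq on GRCm38.p6, a later build than that of the tables. Capitals mark TGACGTCA, the cyclic AMP response element, and CCAAT or its reverse complement ATTGG.
Peg3, chr7:6730370-6730669, minus strand: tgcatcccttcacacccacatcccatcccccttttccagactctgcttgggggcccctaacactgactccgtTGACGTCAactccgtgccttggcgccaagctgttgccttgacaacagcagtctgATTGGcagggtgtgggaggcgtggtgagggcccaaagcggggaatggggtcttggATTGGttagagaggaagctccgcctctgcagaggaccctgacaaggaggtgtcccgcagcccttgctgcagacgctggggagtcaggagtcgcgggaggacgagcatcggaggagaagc
Zim1, chr7:6696383-6696682, minus strand: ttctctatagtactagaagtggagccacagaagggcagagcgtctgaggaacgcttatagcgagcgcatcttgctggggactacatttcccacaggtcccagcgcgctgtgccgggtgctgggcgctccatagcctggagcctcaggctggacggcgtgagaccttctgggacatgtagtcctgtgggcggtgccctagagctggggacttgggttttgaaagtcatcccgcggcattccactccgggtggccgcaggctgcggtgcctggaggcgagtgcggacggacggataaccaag
The Usp29 window, read on the plus strand, overlapped that of Peg3 by 263 bases, and 163 bases separated the RefSeq starts of both genes. The shared stretch held 1 TGACGTCA, whose first base lies at position −178 relative to the start of Peg3 and at position 7 relative to that of Usp29. TGACGTCA occurred on either strand in 588 of 32851 RefSeq mouse promoter windows of this length, which is 1.79%, and CCAAT in 37.4% of them. Both windows also held CCAAT at 2 places, which are the same sites in the shared stretch. Neither held AAGATGGC (a core of the YY1 motif, in 2.75% of windows), AGGTCA (the core site of retinoic acid receptors, in 16.3%) or GGGCGG (the GC box, in 35.7%). The Peg3 window held 13 CpG dinucleotides, the Usp29 window 17 and the Zim1 window 20, against a median of 7 over all windows. Among all windows these counts stood at percentiles 62.1, 68.6 and 73.5, in that order. The Zim1 window held 1 GC box, and neither TGACGTCA nor CCAAT. RefSeq sequences of Peg10 and Sgce promoters were not used here.

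5 of the 6 genes had a higher level in Differentiated cells, 0 had a lower level, and Ppp1r9a lay between the limits. Over the whole gene table, 19.1% of the 18019 genes that reached the floor were higher and 8.46% were lower. Of the called genes, 69.3% were higher, a share that ran from 58.6% to 80.6% under 4 other scalings of the libraries, and the count of higher members was 5 under each of these. The median log2 ratio of the 6 genes was 2.64, beside 0.12 over all genes at the floor, so that members' ratios stand 0.12 lower when read relative to that median. Usp29 and Zim1 reached the floor only through the Differentiated library, so on these values they could be called in 1 direction only. Of the 4 members that reached it in the Undifferentiated library, 3 were higher, beside 14.7% of the 16016 genes of which the same holds. In bulk RNA, more cells that express a gene and more RNA of it per cell cannot be told apart.

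**Figure D1:**
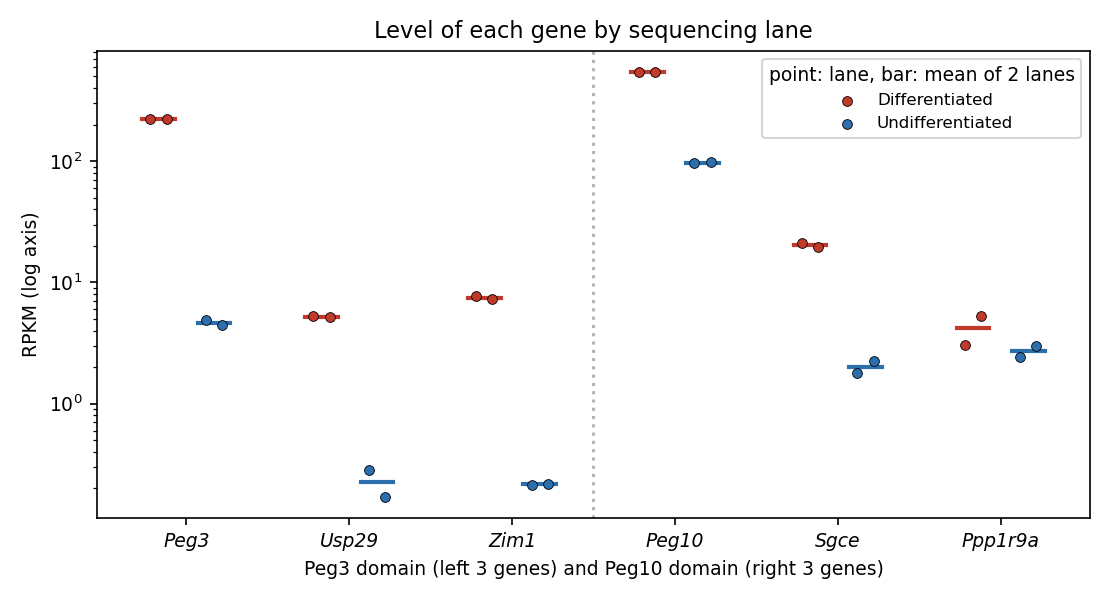
RPKM of the 6 genes in each sequencing lane, on a log axis, with the Differentiated library (red) left of the Undifferentiated library (blue) for each gene, points for lanes and bars for the mean of 2 lanes. The lanes of the libraries stand apart for 5 genes and lie close together for Ppp1r9a, where the Differentiated lanes were 3.08 and 5.34 RPKM and the Undifferentiated lanes 2.41 and 3.02 RPKM.

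Peg3 encodes a large zinc finger protein, and it had the highest ratio of the 6 genes. It occupies chr7:6656603-6683132 on the minus strand. Peg3 had 222.1 and 224.1 RPKM in the Differentiated lanes, against 4.86 and 4.45 RPKM in the Undifferentiated lanes. The means were 223 ± 1.38 RPKM in Differentiated cells and 4.66 ± 0.291 RPKM in Undifferentiated cells. The lanes of the libraries do not overlap, and the log2 ratio was 5.31 (5.25 and 5.37 by lane). Without the added constant the mean was 47.9-fold higher, with a range of 45.7-fold to 50.3-fold over the 4 pairings of lanes. The ratio ranked 22nd of the 18019 genes. With transcript lengths of GENCODE M21, the values stood for about 124985 reads in the Differentiated library (95% Poisson interval 124293 to 125680) and 2975 reads in the Undifferentiated library (2869 to 3084). These intervals cover counting error only.

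All Peg3 transcripts began in 1 first exon, chr7:6682969-6683132. The coding transcript NM_008817 carried 97.8% of the gene's RPKM in Differentiated cells and 98.4% in Undifferentiated cells. A shorter transcript, OTTMUST00000053075, annotated in GENCODE as a retained intron, averaged 4.91 RPKM in Differentiated cells and 0.0764 RPKM in Undifferentiated cells. The split between the transcripts of Peg3 thus differed by 0.561 percentage points between the libraries.

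Usp29, named for a ubiquitin-specific protease, starts 319 bases from Peg3 in the tables and runs the other way over 236 kb, chr7:6683452-6919931 on the plus strand. Usp29 had 5.32 and 5.14 RPKM in the Differentiated lanes, against 0.282 and 0.171 RPKM in the Undifferentiated lanes. The Differentiated lanes were both above the Undifferentiated ones, and the log2 ratio was 2.35 (2.30 and 2.39 by lane). Peg3 stood 42.6-fold above Usp29 per length in Differentiated cells and 20.5-fold above it in Undifferentiated cells.

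The RPKM of Usp29 came mostly from short transcripts that do not reach the annotated coding exon. Of its 5 transcript rows, 3 (UC009FCA.1, UC009FBZ.1 and UC009FBY.1) start at the exon beside Peg3 and end 39.3 kb or 20.7 kb downstream. Together they had 4.83 and 4.83 RPKM in the Differentiated lanes, against 0.0224 and 0.0451 RPKM in the Undifferentiated lanes. They made up 92.3% of the gene's RPKM in Differentiated cells and 14.9% in Undifferentiated cells. The other 2 rows hold the distal exon at chr7:6913871-6916480, which in GENCODE M21 carries the whole coding sequence of 2607 bases. One of them, NM_021323, spans the full 236 kb, and the other, ENSMUST00000054055, is the distal exon alone. Their sum was 0.494 and 0.316 RPKM in the Differentiated lanes, against 0.260 and 0.126 RPKM in the Undifferentiated lanes. That sum stayed under 1 RPKM in both libraries, with a log2 ratio of 0.24, so Usp29 would not be called on the rows that hold the protein-coding exon. ENSMUST00000054055 stood for about 40 reads in Differentiated cells and 18 reads in Undifferentiated cells over both lanes. The division of the gene by rows was made after its values were seen, and how the authors assigned reads among overlapping transcripts is not given in the sources used here.

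Zim1, a gene for a zinc finger protein and expressed from the other parental copy than Peg3, lies 7441 bases beyond the end of Peg3 at chr7:6628154-6649161, minus strand. Zim1 had 7.71 and 7.24 RPKM in the Differentiated lanes, against 0.215 and 0.218 RPKM in the Undifferentiated lanes. Both Differentiated lanes were above both Undifferentiated lanes, and the log2 ratio was 2.80 (2.84 and 2.76 by lane). The values stood for about 3016 reads in the Differentiated library and 94 reads in the Undifferentiated library (95% Poisson interval 76.0 to 115). This interval covers counting error only. It leaves out how reads were divided between transcripts of 7693 and 3060 bases, on which the read number also depends. The gene has 2 first exons in the tables. NM_011769, from chr7:6649080-6649161, had 4.57 and 5.58 RPKM in the Differentiated lanes, against 0.215 and 0.0435 RPKM in the Undifferentiated lanes. OTTMUST00000067070, from the first exon at chr7:6641335-6641522, had 3.14 and 1.66 RPKM in the Differentiated lanes, against 0 and 0.174 RPKM in the Undifferentiated lanes. Both were higher in Differentiated cells, but their split moved between lanes of 1 library: NM_011769 took 59.3% and 77.0% of the gene in the Differentiated lanes, and 100% and 20.0% in the Undifferentiated lanes. The sum over both first exons is therefore firmer than either.

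**Figure D2:**
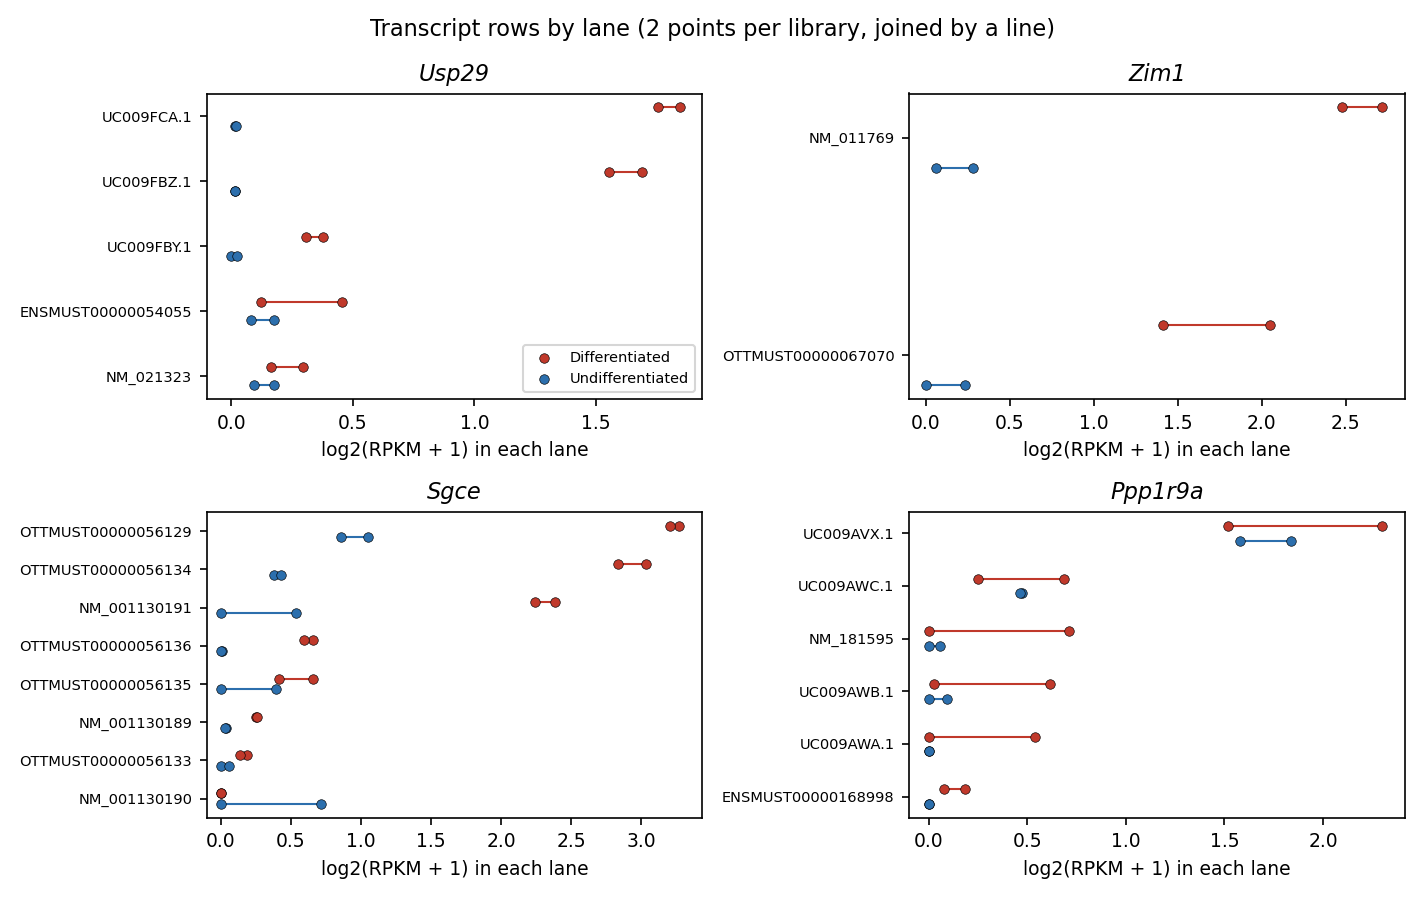
Transcript rows of Usp29, Zim1, Sgce and Ppp1r9a, with log2(RPKM + 1) in each lane on the horizontal axis, Differentiated (red) above Undifferentiated (blue), and the 2 lanes of a library joined by a line. For Usp29 the rows UC009FCA.1 and UC009FBZ.1 separate the libraries while both rows with the distal exon stay low in each.

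Peg10, derived from the gag and pol genes of a retrotransposon and required for placenta formation in the mouse, was the most abundant of the 6 genes per length in both libraries. It lies at chr6:4697306-4710516 on the plus strand. Peg10 had 543.9 and 542.2 RPKM in the Differentiated lanes, against 96.7 and 97.6 RPKM in the Undifferentiated lanes. Its mean level ranked 298th of all genes in Differentiated cells and 1592nd in Undifferentiated cells. The lanes of each library lay close together and the libraries did not overlap, at a log2 ratio of 2.47 (2.48 and 2.46 by lane) and a mean 5.59-fold higher. The values stood for about 232049 reads in the Differentiated library and 47119 reads in the Undifferentiated library. Both transcript rows began in the first exon chr6:4697306-4697578, and NM_001040611 carried 98.5% of the gene in Differentiated cells and 98.4% in Undifferentiated cells.

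Sgce encodes epsilon-sarcoglycan, a membrane protein of the dystrophin-associated complex. It begins 101 bases from Peg10 and runs the other way, chr6:4624350-4697204 on the minus strand. Sgce had 21.1 and 19.7 RPKM in the Differentiated lanes, against 1.79 and 2.25 RPKM in the Undifferentiated lanes. The libraries did not overlap, and the log2 ratio was 2.82 (2.98 and 2.67 by lane), or 10.1-fold without the added constant (8.75-fold to 11.8-fold over pairings of lanes). Peg10 stood 26.6-fold above Sgce per length in Differentiated cells and 48.1-fold above it in Undifferentiated cells.

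The first exon of Sgce next to Peg10, chr6:4696980-4697204, had 11.8 and 11.0 RPKM in the Differentiated lanes, against 0.974 and 1.17 RPKM in the Undifferentiated lanes. It took 56.0% of the gene in Differentiated cells and 53.2% in Undifferentiated cells. An internal start, chr6:4680006-4680126, whose only transcript OTTMUST00000056129 is annotated as a retained intron, had 8.66 and 8.20 RPKM in the Differentiated lanes, against 0.813 and 1.07 RPKM in the Undifferentiated lanes. The internal start took 41.4% of the gene in Differentiated cells and 46.7% in Undifferentiated cells, so the values assigned to both main starts were higher together. This start is the first exon of an annotated transcript, and whether RNA begins there was not measured. OTTMUST00000056129, chr6:4624360-4680126, lies within the span of the longer Sgce transcripts, and how reads were divided among overlapping transcripts is not given. Among transcripts from the first exon, OTTMUST00000056134 took 32.7% of the gene in Differentiated cells and 16.1% in Undifferentiated cells. NM_001130191 averaged 3.97 RPKM in Differentiated cells and 0.224 RPKM in Undifferentiated cells, where 1 lane was at 0. NM_001130190 was at 0 in both Differentiated lanes and at 0.644 and 0 RPKM in the Undifferentiated lanes. Lanes of the Undifferentiated library thus divided its roughly 247 Sgce reads in different ways.

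Ppp1r9a encodes neurabin, which binds actin filaments and protein phosphatase 1. It starts 142 kb beyond Peg10 at chr6:4852974-5115661 on the plus strand. Ppp1r9a had 3.08 and 5.34 RPKM in the Differentiated lanes, against 2.41 and 3.02 RPKM in the Undifferentiated lanes. The lower value for Differentiated cells nearly met the higher one for Undifferentiated cells, the log2 ratio was 0.49 (0.26 and 0.66 by lane), and the gene was not called. A second row of the table, NEURABIN, covers chr6:4853320-5115661 on the same strand, and its transcript belongs to Ppp1r9a in GENCODE M21. NEURABIN had 2.00 and 0.511 RPKM in the Differentiated lanes, against 0.403 and 0.683 RPKM in the Undifferentiated lanes. In the Differentiated library the lane that was low in Ppp1r9a was high in NEURABIN. The sum of both rows, formed after the values were seen, was 5.07 and 5.85 RPKM in the Differentiated lanes, against 2.81 and 3.70 RPKM in the Undifferentiated lanes. The sum differed 1.15-fold between Differentiated lanes, beside 1.73-fold for Ppp1r9a alone, and its log2 ratio of 0.60 was likewise under the limit of 2-fold.

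Ppp1r9a has 5 starts in the tables, and UC009AVX.1 from chr6:4852974-4853031 led in both libraries. That start averaged 2.99 ± 1.40 RPKM in Differentiated cells and 2.28 ± 0.416 RPKM in Undifferentiated cells. It took 71.1% of the gene in Differentiated cells and 83.9% in Undifferentiated cells, and the lanes ran from 65.0% to 74.6% in Differentiated cells and from 82.2% to 85.2% in Undifferentiated cells. The RefSeq coding transcript NM_181595 had 0 and 0.639 RPKM in the Differentiated lanes, against 0.0407 and 0 RPKM in the Undifferentiated lanes.

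Over all rows of the 6 genes, 8 of 14 promoter rows reached 1 RPKM in either library, and 7 of these were higher, 0 lower and 1 between. Among all promoters at the floor, 20.2% of 25933 were higher and 9.32% lower. Of 25 transcript rows 12 reached the floor, of which 11 were higher, 0 lower and 1 between. Of all 34366 transcripts at the floor, 20.2% were higher and 9.77% lower. The Usp29, Zim1 and internal Sgce starts called higher had 0.0871 to 0.944 RPKM in Undifferentiated cells. Of the higher transcript rows, only NM_008817 of Peg3 and those of Peg10 reached 1 RPKM there. Higher rows under 1 RPKM in Undifferentiated cells could be called in 1 direction only, and the rows divide the same 6 genes. Sgce and Ppp1r9a had several starts and at least 1 RPKM in both libraries, and the largest difference of a start's share was 5.36 percentage points in Sgce and 12.9 in Ppp1r9a. No member reached a difference of 30 percentage points in the share of a start or transcript, among genes at 1 RPKM in both libraries. Among all genes tested, 7.67% of 6959 did so for starts and 9.43% of 9367 genes for transcripts. Usp29 and Zim1 were left out, as they had under 1 RPKM in the Undifferentiated library. The Usp29 start beside Peg3 took 95.6% of 5.23 RPKM in Differentiated cells and 58.2% of 0.227 RPKM in Undifferentiated cells, a difference of 37.4 percentage points.

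Per length, the order of levels in Differentiated cells was Peg10, Peg3, Sgce, Zim1, Usp29 and Ppp1r9a, and the lanes of Usp29 lay within the range of Ppp1r9a. In Undifferentiated cells it was Peg10, Peg3, Ppp1r9a, Sgce, Usp29 and Zim1, and the lanes of Zim1 lay within the range of Usp29. Peg10 was 2.43-fold above Peg3 in Differentiated cells and 20.9-fold above it in Undifferentiated cells. Sgce was 4.84-fold above Ppp1r9a in Differentiated cells (6.85-fold and 3.69-fold by lane). The ratio of Sgce to Ppp1r9a was 0.744 in Undifferentiated cells (0.743 and 0.746 by lane). These ratios use the Ppp1r9a row without NEURABIN.

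High ratios around Peg3 covered the stretch from 1110014L15Rik to Usp29 and no other gene at the floor within 500 kb. Of 37 neighbouring gene rows within 500 kb of the start of Peg3, 10 reached 1 RPKM in either library. Of these 10, 1 was higher (10%, beside 19.1% of all genes), 2 lower and 7 between, at a median log2 ratio of −0.35. The higher one, 1110014L15Rik, lies on the minus strand at chr7:6623980-6625599, 2554 bases from the end of Zim1. It had 7.54 and 7.80 RPKM in the Differentiated lanes, against 0.0817 and 0.0683 RPKM in the Undifferentiated lanes, at a log2 ratio of 3.01. Its level thus stood close to that of Zim1 in Differentiated cells and under it in Undifferentiated cells. Like Zim1, 1110014L15Rik reached the floor only through the Differentiated library and could be called in 1 direction only. The lower ones were Aurkc, a meiotic aurora kinase, at 1.09 RPKM in Differentiated cells and 4.81 RPKM in Undifferentiated cells, and AK079003 at 0.344 RPKM in Differentiated cells and 2.68 RPKM in Undifferentiated cells. The 7 between were the zinc finger protein genes Zfp667, Zfp583, Zfp28, Zfp264, Zfp954, Zfp418 and Zfp772, with log2 ratios from −0.83 (Zfp418) to 0.44 (Zfp28).

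**Figure D3:**
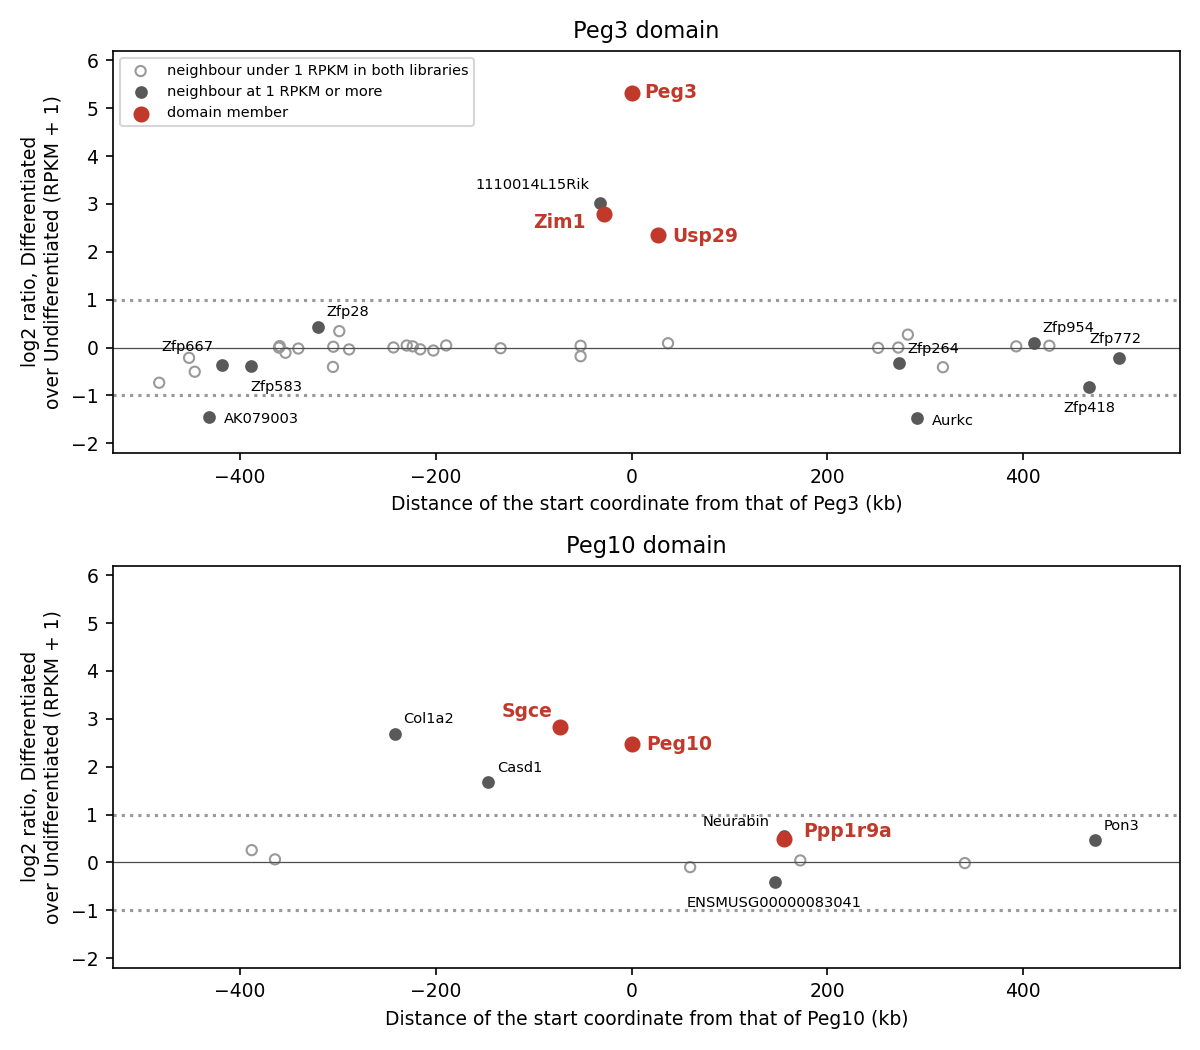
Log2 ratio of Differentiated over Undifferentiated RPKM + 1 for each gene row within 500 kb of Peg3 (top) and Peg10 (bottom), against the distance of its start coordinate in kb, with dotted lines at a 2-fold difference. Peg3, Usp29, Zim1 and 1110014L15Rik stand between 2.35 and 5.31 while the other labelled neighbours of Peg3 lie between −1.48 and 0.44.

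On the side of Sgce, the neighbours Col1a2 and Casd1 were also higher. Neighbours were taken by position or by name, and none was classed here as imprinted or not imprinted. Of 10 neighbouring rows within 500 kb of the start of Peg10, 5 reached the floor, and 2 were higher (40%, beside 19.1% of all genes), 0 lower and 3 between. NEURABIN, whose transcript belongs to Ppp1r9a, is among these 5 rows and among the 26 given below. Col1a2, a chain of type I collagen, averaged 48.6 ± 3.56 RPKM in Differentiated cells and 6.69 ± 1.90 RPKM in Undifferentiated cells (log2 ratio 2.69), and it is also in the list of fibroblast markers. Casd1, an enzyme that acetylates sialic acid, averaged 10.0 ± 2.74 RPKM in Differentiated cells and 2.44 ± 0.785 RPKM in Undifferentiated cells (1.68). Those between were NEURABIN (0.55), Pon3, a paraoxonase (0.47), and ENSMUSG00000083041 (−0.40). With the more distant genes of the lists, which were chosen by name, 7 of 26 neighbours at the floor were higher, 3 lower and 16 between, so that 26.9% were higher beside 19.1% of all genes. The more distant higher genes were Clcn4-2, Gng11, Calcr and Pon2, and the more distant lower gene was Pdk4, at 1.24 RPKM in Differentiated cells and 4.46 RPKM in Undifferentiated cells (−1.28). Calcr (1.32), Pon2 (1.33) and Pdk4 are named after their values were seen. Gng11, a G protein subunit, averaged 4.60 RPKM in Differentiated cells and 0.231 RPKM in Undifferentiated cells. Like 1110014L15Rik, Gng11 and Calcr (0.703 RPKM in Undifferentiated cells) reached the floor only through the Differentiated library, and AK079003 only through the Undifferentiated library. Each of these could be called in 1 direction only. Clcn4-2, a chloride exchanger beyond the Peg3 domain, averaged 7.50 RPKM in Differentiated cells and 1.44 RPKM in Undifferentiated cells. Zscan4-ps2, the third gene of the list of named Peg3 neighbours, averaged 4.20 RPKM in Differentiated cells and 3.01 RPKM in Undifferentiated cells.

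Imprinted genes of other domains were higher more often than lower. Of 36 such genes at the floor, 20 were higher, 2 lower and 14 between, at a median log2 ratio of 1.20, and 55.6% higher compares with 19.1% of all genes. The count of higher ones was between 19 and 21 under the 4 other scalings. Some of these genes reached the floor only through the Differentiated library and could be called in 1 direction only. Of the 29 that reached it in the Undifferentiated library, 15 were higher and 2 lower, at a median log2 ratio of 1.03. That is 51.7% higher, beside 14.7% of all genes of which the same holds. Igf2, a fetal growth factor, averaged 416 ± 3.54 RPKM in Differentiated cells and 3.79 ± 0.910 RPKM in Undifferentiated cells. H19, a noncoding RNA next to Igf2, averaged 1028 RPKM in Differentiated cells and 28.5 RPKM in Undifferentiated cells. Mest averaged 217 RPKM in Differentiated cells and 7.78 RPKM in Undifferentiated cells. Among the 51 members and other imprinted genes together, Peg3 ranked 2nd by ratio, Sgce 9th, Zim1 10th, Peg10 14th, Usp29 16th and Ppp1r9a 28th.

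**Figure D4:**
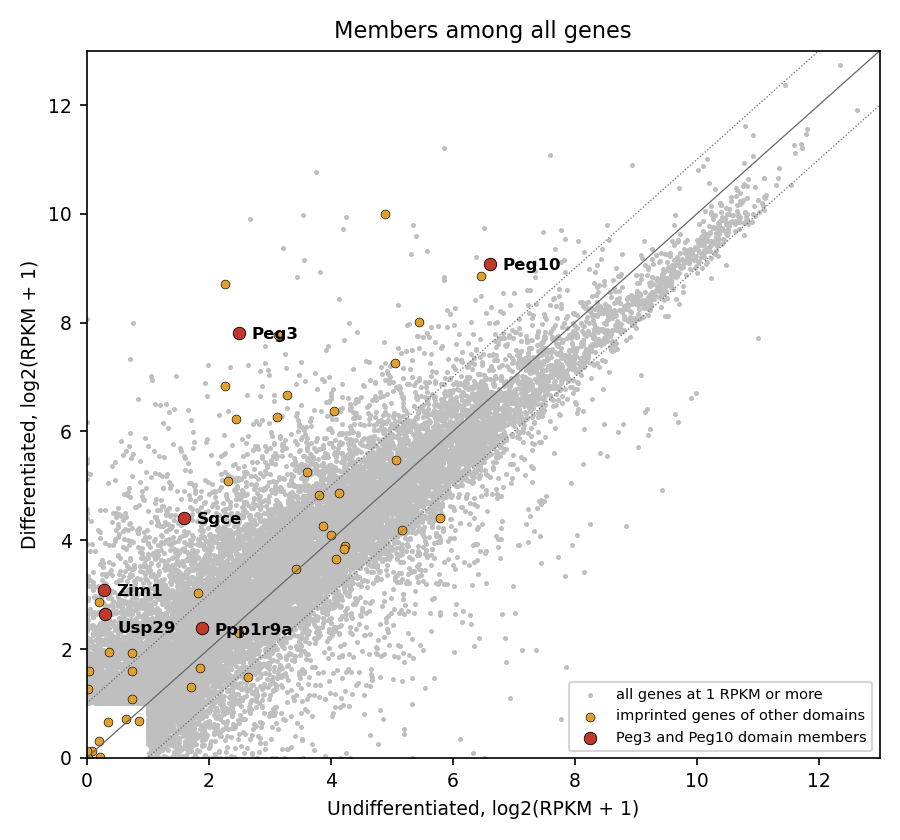
Each gene with at least 1 RPKM in either library (grey), imprinted genes of other domains (orange) and the 6 members (red), by log2(RPKM + 1) in the Undifferentiated library (horizontal) and the Differentiated library (vertical), with the diagonal and dotted lines at a 2-fold difference. 5 members lie above the upper dotted line and Ppp1r9a lies between the lines.

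Factors that maintain or bind imprinted control regions were lower or between. Of 12 such genes, 0 were higher and 4 lower, at a median log2 ratio of −0.28, where 8.46% of all genes were lower. Under the 4 other scalings 4 were lower throughout and 0 to 2 were higher. Zfp57, a zinc finger protein that protects methylated imprints with Trim28, averaged 27.2 RPKM in Differentiated cells and 110 RPKM in Undifferentiated cells. Dppa3, which protects maternal methylation in the zygote, averaged 0.119 RPKM in Differentiated cells and 8.78 RPKM in Undifferentiated cells. Zfp42, which is also an ES cell marker, averaged 9.70 RPKM in Differentiated cells and 284 RPKM in Undifferentiated cells. Trim28, named after its values were seen, was the fourth. Yy1, whose binding sites are known in the Peg3 control region and which was also named after its values were seen, averaged 48.3 RPKM in Differentiated cells and 56.5 RPKM in Undifferentiated cells, a log2 ratio of −0.22.

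Lists of genes whose products work with those of the members, or resemble them, had median log2 ratios between −0.23 and 1.00, beside 2.64 for the members. In the complex around Sgce, 2 of 9 genes at the floor were higher and 0 lower, at a median log2 ratio of 0.69, and this share of 22.2% is near the 19.1% of all genes. Dag1, or dystroglycan, averaged 52.8 RPKM in Differentiated cells and 18.8 RPKM in Undifferentiated cells. Utrn, the dystrophin relative utrophin, averaged 42.0 RPKM in Differentiated cells and 17.3 RPKM in Undifferentiated cells. Dmd, or dystrophin, averaged 5.39 RPKM in Differentiated cells and 10.0 RPKM in Undifferentiated cells, which is between the limits.

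Of 10 protein phosphatase 1 and neurabin partners, 2 were higher and 0 lower, at a median of 0.29, and 2 to 4 were higher under other scalings. The share of 20% is near the 19.1% of all genes. Ppp1r9b, or spinophilin, the relative of neurabin, averaged 23.9 RPKM in Differentiated cells and 6.05 RPKM in Undifferentiated cells. Rgs4, a regulator of G protein signalling, had 1.81 and 15.4 RPKM in the Differentiated lanes, against 0.0492 and 0.0385 RPKM in the Undifferentiated lanes, so its size rests on 1 lane. Arhgef2, a guanine nucleotide exchange factor, averaged 25.6 RPKM in Differentiated cells and 13.7 RPKM in Undifferentiated cells, between the limits.

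Of 10 other Gag-derived genes at the floor, 6 were higher and 1 lower, at a median of 1.00 (60% higher, beside 19.1% of all genes), and the count of higher ones was 4 to 6 under other scalings. Rgag4 and Ldoc1l, at 0.194 and 0.554 RPKM in Undifferentiated cells, reached the floor only through the Differentiated library and could be called in 1 direction only. Cxx1b averaged 12.9 RPKM in Differentiated cells and 3.87 RPKM in Undifferentiated cells, and Cxx1a averaged 12.3 RPKM in Differentiated cells and 3.73 RPKM in Undifferentiated cells. Cxx1c, named after its values were seen, was also higher on its means, at 9.52 and 8.04 RPKM in the Differentiated lanes, against 0.835 and 4.48 RPKM in the Undifferentiated lanes. These 3 genes are similar copies, and how reads that match several copies were counted is not given, so their values are uncertain. Arc, a synaptic protein that forms capsids, averaged 1.94 RPKM in Differentiated cells and 10.8 RPKM in Undifferentiated cells.

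Of 9 genes whose products work with Peg3 or Usp29, or resemble Usp29, 0 were higher and 2 lower (22.2%, beside 8.46% of all genes). Their median was −0.23, and it came to 0.01 with equal RPKM sums. Usp26, a protease relative of Usp29, averaged 0.578 RPKM in Differentiated cells and 3.70 RPKM in Undifferentiated cells. Siah1b, a ubiquitin ligase, averaged 12.8 RPKM in Differentiated cells and 29.2 RPKM in Undifferentiated cells. Trp53, which encodes p53, averaged 52.5 RPKM in Differentiated cells and 98.0 RPKM in Undifferentiated cells, between the limits.

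**Figure D5:**
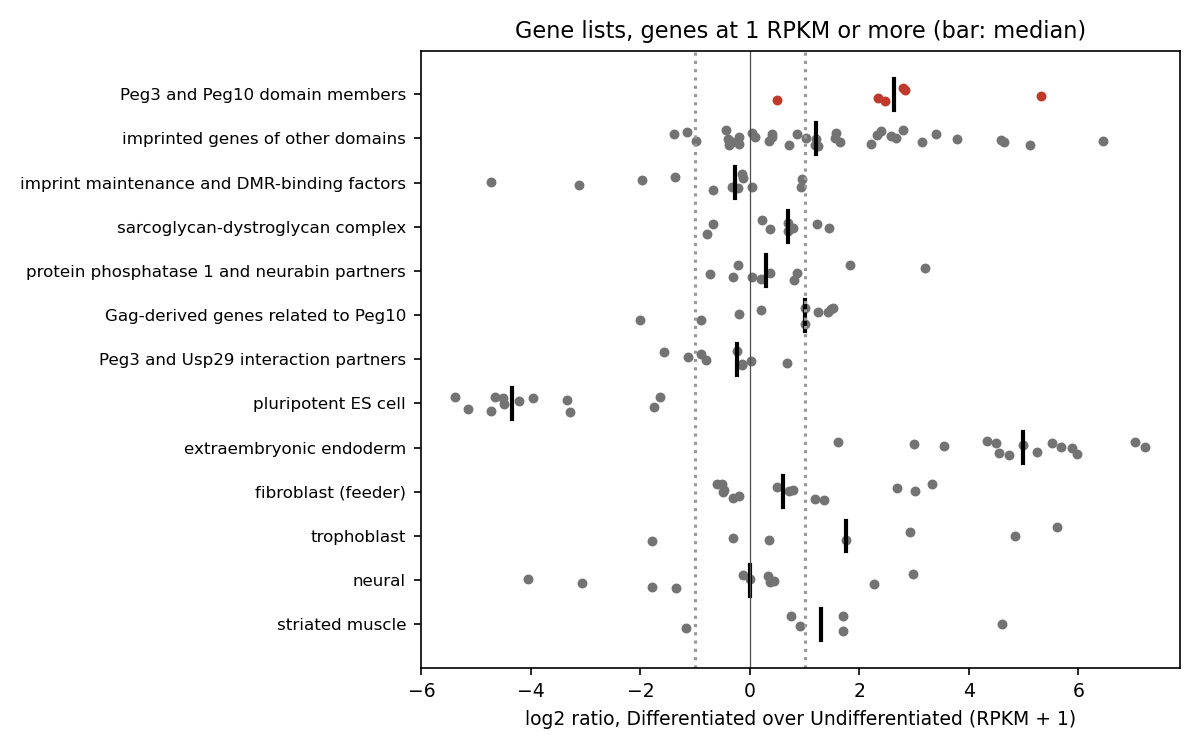
Log2 ratio of Differentiated over Undifferentiated RPKM + 1 for genes at the floor in each list, 1 point per gene and a black bar at the median, with dotted lines at a 2-fold difference. The members' median is 2.64, that of other imprinted genes 1.20, of extraembryonic endoderm markers 4.99 and of ES cell markers −4.35.

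Cell type markers also differed between the libraries. Over all genes at the floor, 19.1% were higher and 8.46% lower, to be read beside the shares given here. All 12 ES cell markers were lower and summed to 377 and 370 RPKM in the Differentiated lanes, against 4425 RPKM in both Undifferentiated lanes. All 15 extraembryonic endoderm markers were higher and summed to 5116 and 5212 RPKM in the Differentiated lanes, against 64.1 and 63.1 RPKM in the Undifferentiated lanes. Of 14 fibroblast markers at the floor, 5 were higher (35.7%) and 0 lower. The list summed to 252 and 249 RPKM in the Differentiated lanes, against 54.8 and 50.1 RPKM in the Undifferentiated lanes. Most of that sum was Col1a1, Col1a2 and Col3a1. Without these 3 collagens, left out after their values were seen, the other 12 markers summed to 32.1 and 32.3 RPKM in the Differentiated lanes, against 29.8 and 29.8 RPKM in the Undifferentiated lanes. Of the 11 of these at the floor, 2 were called higher and 0 lower, and 6 had a negative log2 ratio. Of 7 trophoblast markers at the floor, 4 were higher (57.1%) and 1 lower (14.3%). The sum over that list was 840 and 631 RPKM in the Differentiated lanes, against 44.5 and 43.3 RPKM in the Undifferentiated lanes, where Tpbpa was at 0. Krt8 and Krt7, keratins of simple epithelia, made up most of it. Without these 2, likewise left out after their values were seen, the other 10 markers summed to 23.1 and 20.0 RPKM in the Differentiated lanes, against 30.2 and 27.8 RPKM in the Undifferentiated lanes. Of the 5 of these at the floor, 2 were called higher and 1 lower. As the genes left out of both lists had the highest levels in Differentiated cells, the remaining sums lean towards lower values there. Of 11 neural markers at the floor, 2 were higher (18.2%, near the share of all genes) and 4 lower (36.4%). Of 6 striated muscle markers at the floor, 3 were higher (50%) and 1 lower (16.7%), with Myog at 0 in Differentiated cells. The part of these shifts in the ratios of the members was not tested.

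By the 4 lane values on the log2(RPKM + 1) scale, the genes most like each member were found by Euclidean distance among 18918 genes. Rows named only by a clone, gene model or database number, 1110014L15Rik among them, and symbols with several rows were not searched. For Peg3 they were Ilk (distance 0.695), Ecm1 (0.849) and Mest (0.901). None of the genes searched came as near to Peg3 as the nearest genes of the other members came to them. For Usp29 they were Zfp9 (0.109), Igsf11 (0.138) and Gpr146 (0.187), and for Zim1 they were Jph2 (0.122), Il10rb (0.128) and B4galnt2 (0.156). For Peg10 they were Mdk (0.381), Gnas (0.400) and Vim (0.720), of which Gnas is imprinted too. For Sgce they were Sh3pxd2b (0.162), Trio (0.216) and Fosb (0.229), and for Ppp1r9a they were Tbc1d16 (0.200), Sh3tc1 (0.256) and Dusp7 (0.265). The lanes come from 1 library per condition, so likeness here is closeness of levels in 2 libraries.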

How the data were processed

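Poly(A) RNA of 1 Differentiated and 1 Undifferentiated library was read on 2 lanes each, and the authors deposited 3 tables of genes, promoters and transcripts. The unit is not named; the deposited values were read as RPKM because in low single-exon genes 82.0% to 82.3% of values stood for a whole number of reads within 0.05 of a read, and lane sums differed. The build is mm9, per the submitters' processing notes; no aligner, counting program or annotation is named, and the handling of multiply mapped reads is likewise not given in the sources used here. Strand is not recorded by the kit, per the labels' protocols, so overlapping and antisense genes share reads.

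Members and lists were chosen with earlier results of these data known. Ratios used a pseudocount of 1 RPKM, a floor of 1 RPKM in either library and a 2-fold limit, over the whole table. A gene that reached the floor through only 1 library could be called in only 1 direction, among members, neighbours and lists alike. Named genes are the 6 members, neighbours within 500 kb at the floor, the 3 genes of each list with the largest absolute ratio (values of marker lists are given as sums) and the 3 genes nearest each member. Dcn, Ascl2, Rtl1, Zfp42 and Col1a2 each stand in 2 lists. Zim2, Apeg3, Vmn1r64, Nlrp4b, Pon1, Ins2, Sgcz, Zcchc5 and Mar8 found no row by symbol and are not analysed here. Where a symbol had several rows, that with the highest mean stood for the gene. Read numbers used transcript lengths of GENCODE M21, and promoter windows came from RefSeq on GRCm38.p6, matched by symbol for 4 of the 6 members. Calculations used Python 3.11.15, numpy 2.4.6, pandas 2.3.3, scipy 1.17.1 and matplotlib 3.10.9, and were tested on simulated data. Other pseudocounts, scalings, floors, folds and single lanes were tried.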

Additional observations from a re-analysis of the deposited data

How the results depend on the processing

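With 1 library per group, no difference has a replicate check. No paired analysis was possible because each group is 1 library. The count of members higher in Differentiated cells was 4 to 5 over 13 alternatives, and 4 arose where Usp29 was taken by its 2 rows with the distal coding exon, an alternative added after seeing the data. The count of lower members was 0 in all 10 alternatives tried for it. Higher neighbours numbered 5 to 9, against 7 as reported, and other higher imprinted genes 16 to 21, against 20. No ratio of a member changed sign over 8 settings. The log2 ratio ran from 5.15 to 5.55 for Peg3, from 2.21 to 4.03 for Usp29, from 2.66 to 4.58 for Zim1, from 2.31 to 2.71 for Peg10, from 2.67 to 3.27 for Sgce and from 0.26 to 0.69 for Ppp1r9a. The highest values of Usp29 and Zim1 came with a pseudocount of 0.1 RPKM, since both are weakly expressed in Undifferentiated cells. Under a stricter minimum of 5 RPKM per gene in each library, transcript shares could be given for Peg10 alone.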
